A study of Acromyrmex echinatior with 18 samples.

Results

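Among the genes with RNA editing sites in the leaf-cutting ant Acromyrmex echinatior, 198 of 1433 are annotated as uncharacterized proteins and have no fly ortholog in the table, and these genes are described here. They were chosen by annotation and not by editing level, but 3 genes with many sites were left out by name. The deposited protein name had to contain the word uncharacterized and the field for the Drosophila melanogaster ortholog had to be empty. Sites assigned to 2 genes at once were left out, as were the 3 uncharacterized genes Aech_15068, Aech_03292 and Aech_07791, which together hold 166 sites. The members' shares by element, base change and transposable element, their levels and their caste pattern are given without these 3 genes. The 198 genes hold 860 of the 17229 sites in the table. Of them, 182 carry the name putative uncharacterized protein, 12 the same name marked as a fragment and 2 the name uncharacterized protein, while the names of the other 2 refer to human open reading frames. The name is that of a predicted protein and says nothing of its function, so the genes are called by their identifiers.

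The study compared 3 female castes of this ant, each sampled as pooled heads from colonies Ae322, Ae356 and Ae363, written here as colonies A, B and C. A small worker library came from 200 heads, a large worker library from 50 heads and a gyne library from 50 heads, gynes being the females that can become queens. The colonies were kept in the laboratory on leaves, rice and fruit, and there was 1 strand-specific RNA library of polyadenylated RNA and 1 DNA library from the bodies for each caste and colony. The editing level of a site is the share of its RNA reads that carry the changed base, in percent, with all reads of 1 library pooled over its ants.

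In animals, enzymes of the ADAR family bind double-stranded RNA and convert adenosine to inosine, a base that appears as G in sequencing reads. Most such sites lie in parts of transcripts that fold back on themselves, often in introns and untranslated regions (UTRs), where neighbouring adenosines are edited together, and a smaller number lie in coding sequence, where editing can change the protein. Genes without a recognisable relative in a distant insect may be young, fast-changing or wrongly predicted, and the annotation does not tell these apart.

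RNA reads over the 860 sites numbered 36681 to 47838 in the small worker libraries, 22100 to 37389 in the large worker libraries and 23744 to 28348 in the gyne libraries, which was between 4.28% and 4.93% of the reads over all sites. The small worker libraries of colonies A and B held the most of these reads, and the lowest small worker library held fewer than the large worker library of colony A. DNA reads at member sites numbered at least 10 in every DNA library, and 0 of them carried the changed base. Whether the sites were selected on these counts is not stated in the sources used. Levels were compared at the 245 sites in 82 genes that had at least 10 RNA reads in all 9 RNA libraries. This minimum concerns reads and not editing, and it left 116 members untested. It was reached by 28.5% of member sites, against 41.55% in genes with a fly ortholog. The median site had 12.1 reads per library in members and 20.8 in genes with a fly ortholog. The part of this difference in the comparisons of site counts below was not tested.

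Edited uncharacterized genes without a fly ortholog held about as many sites as genes with one. They held a mean of 4.34 and a median of 2 sites per gene, against a mean of 4.93 and a median of 2 over the 1006 genes with a fly ortholog. A single site was listed in 71 members (35.9%) and in 43.1% of the genes with a fly ortholog. Members with 10 or more sites numbered 22 (11.1%) and held 47.6% of the member sites, against 13.3% of the genes with a fly ortholog and 56.1% of their sites. The site counts run up to 40 in Aech_14144, against 87 in the richest gene with a fly ortholog. The 3 uncharacterized genes left out by name are denser, with 46 to 74 sites each. With them put back, a comparison added after the data were seen, the mean would be 5.10 sites per gene over 201 genes, 12.4% of the genes would have 10 or more sites, and these would hold 56.0% of the sites. The 10 richest members together hold 256 sites, or 29.8% of all member sites. After Aech_14144 these are Aech_13339 with 32 sites, Aech_12892 with 28, Aech_17830 with 26, Aech_02209, Aech_04420, Aech_09867 and Aech_16122 with 23 each, Aech_07681 with 20 and Aech_14809 with 18.

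Member sites lay close together. The median distance between neighbouring sites of a gene was 12 bases, against 9 bases in genes with a fly ortholog, and 79.0% of the member distances were at most 100 bases, against 82.5%. Runs of 5 or more sites with no gap above 100 bases occurred in 31 members (15.7%) and held 350 sites (40.7% of the member sites). In genes with a fly ortholog such runs occurred in 20.7% of genes and held 54.0% of sites. The longest run had 21 sites in a member and 34 in a gene with a fly ortholog. With the 3 genes left out by name put back, also after the data were seen, runs of 5 or more would hold 48.7% of the sites in 16.9% of the genes, with the longest at 24 sites. No test was made of these shares, since sites of 1 gene are not independent of each other.

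The kinds of base change had similar shares in both groups of genes. A-to-G changes made up 807 member sites (93.8%), against 93.2% in genes with a fly ortholog. Transposable elements covered 231 member sites (26.9%), against 31.8%. These 231 sites lie in 73 members, and all sites of 35 members lie within such elements. In 34 members no A-to-G site is listed. The members were spread over 134 of 405 scaffolds, 89 of which hold 1 member, and the most on a single scaffold was 6, on scaffold 436 of assembly Aech_2.0.

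The elements that hold the sites differed in their shares, with more intronic and 5′ UTR sites and fewer 3′ UTR sites in members. Introns held 494 member sites (57.4%), against 42.9% in genes with a fly ortholog. The 3′ UTRs held 237 member sites (27.6%), against 48.8%. The 5′ UTRs held 92 member sites (10.7%), against 3.91%. Counted by gene, 13.1% of the members (26 genes) and 7.56% of the genes with a fly ortholog had a 5′ UTR site. Of the 92 sites, 40 (43.5%) belong to Aech_14809 with 18, Aech_12892 with 13 and Aech_17327 with 9. Most members, 173 (87.4%), had sites in a single kind of element, and these include the 71 members with only 1 site.

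**Figure D1:**
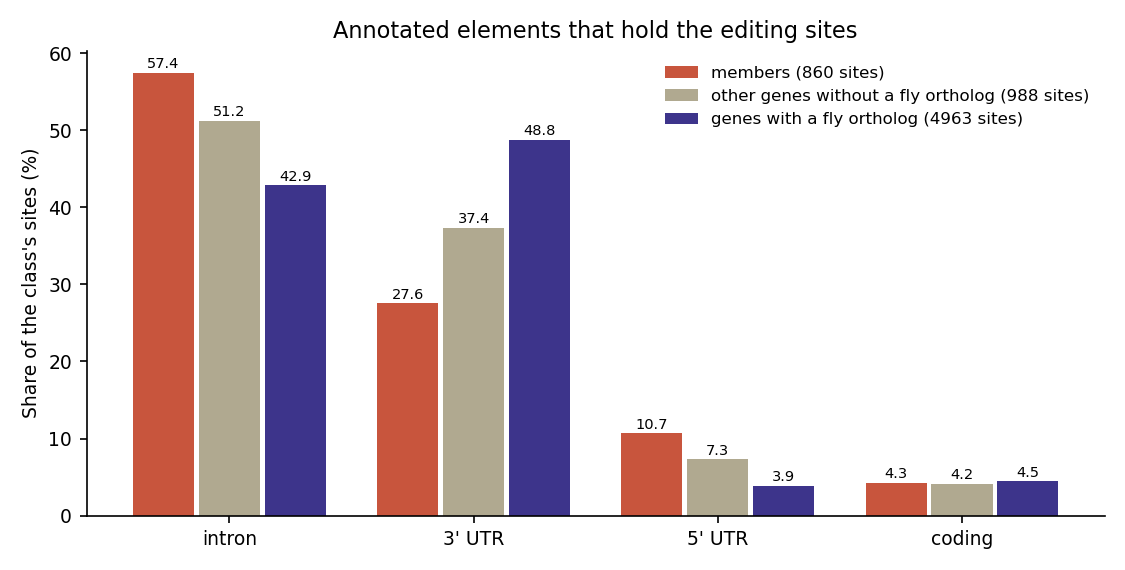
Share of sites, in percent of the sites of each class, in introns, 3′ UTRs, 5′ UTRs and coding sequence for members (red), other genes without a fly ortholog (grey) and genes with a fly ortholog (blue). Members have the highest share in introns (57.4%) and the lowest in 3′ UTRs (27.6%), and the coding shares lie between 4.15% and 4.47%.

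Genes without a fly ortholog that carry another protein name, or in a few cases none, had shares between these, with 51.2% of 988 sites in introns, 37.4% in 3′ UTRs and 7.29% in 5′ UTRs. Uncharacterized genes with a fly ortholog, 79 genes with 302 sites, had 31.8% in introns and 58.3% in 3′ UTRs. Intronic shares above that of all genes with a fly ortholog were thus found in both groups of genes that lack one, and a lower share in the uncharacterized genes that have one. How well the UTRs of each class are annotated was not tested.

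Coding sequence held 37 member sites in 29 genes (4.30% of sites), close to the 4.47% in genes with a fly ortholog. A-to-G changes were 24 of the 37 (64.9%), against 33.8% of the 222 coding sites in genes with a fly ortholog. Most of the 24 rest on few reads. Their mean depth per library was below 5 reads at 16 of them, and 5 of 24 (20.8%) reached the read minimum, against 54.7% of the 75 coding A-to-G sites in genes with a fly ortholog. Among coding member sites that reached it, 5 of 15 were A-to-G, against 41 of 164 in genes with a fly ortholog. Of the 37 coding sites, 9 (24.3%) lie in transposable elements, against 5.41%.

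The coding A-to-G site with the most reads lies in Aech_02209, on the minus strand of scaffold 232 at position 2390331, next to another coding site of that gene. Its level was 16.3%, 13.6% and 10.3% in small workers of colonies A, B and C, 5.48%, 3.85% and 20% in large workers and 12.3%, 6.52% and 9.38% in gynes. The castes overlap, and between 15 and 162 reads stood behind each value. A further coding A-to-G site, in Aech_03354 at position 1186950 of scaffold 140, was marked as edited in all 9 libraries by the authors' deposited table, but 2 libraries had fewer than 10 reads. It is singled out here after its values were seen. Its pooled level was 21.6% of 125 reads in small workers, 28.1% of 32 reads in large workers and 33.3% of 33 reads in gynes. Amino acid changes were not analysed here.

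The deepest tested coding sites of members were not A-to-G sites, and their levels were low. Aech_11778, with 118 to 375 reads per library at its site, stood at 3.69% ± 2.54 in small workers, 4.98% ± 1.20 in large workers and 3.29% ± 2.68 in gynes (SD, n = 3 each). Aech_04297 reached 6.58% in large workers of colony B and was below 1% in the other 8 libraries. Aech_06285 was at 6.67% in gynes of colony C and listed at 0 in the other 8 libraries. A high value in a single library also marks Aech_08122, with 5.04% in large workers of colony B against at most 2.10% elsewhere. The coding sites of Aech_08377 and Aech_11074 ranged from 0% to 12.5% and from 0% to 9.09% over the 9 libraries, with all castes overlapping.

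The mean editing level of members over all tested sites was slightly above that of genes with a fly ortholog in each library. This did not hold in every library at A-to-G sites alone, nor for the caste means within introns or coding sequence. The mean over the 82 tested members was 11.8%, 10.6% and 12.0% in small workers of colonies A, B and C, 9.97%, 9.33% and 9.25% in large workers and 8.98%, 7.89% and 8.51% in gynes. Over the 531 tested genes with a fly ortholog it was 10.1%, 10.0% and 9.98% in small workers, 8.95%, 8.19% and 8.52% in large workers and 7.34%, 7.28% and 6.97% in gynes. Every member value lay above the ortholog value of the same library, by 0.592 to 2.04 percentage points with a mean of 1.23. The libraries share their genes, so the 9 differences are not independent. At A-to-G sites alone members lay higher in 7 libraries, while in small workers of colony B members were at 15.1% and genes with a fly ortholog at 15.3%, and in large workers of colony C at 12.3% and 12.4%. At a minimum of 5 reads the mean excess over all tested sites was 0.608 points. The medians lay closer together. The median gene level was 5.21% in members and 4.80% in genes with a fly ortholog, and 13 members (15.9%) exceeded 20%, against 10.4%. Uncharacterized genes with a fly ortholog lay higher still, at 13.3%, 11.8% and 10.0% in small workers, large workers and gynes, and other genes without a fly ortholog lower, at 8.09%, 7.13% and 6.30%. By element, members did not lie higher throughout. With genes weighted equally, intronic levels in small workers, large workers and gynes were 12.75%, 10.8% and 9.09% in members. In genes with a fly ortholog they were 13.8%, 12.0% and 10.2%. On the same weighting, coding levels were lower in members in all 3 castes, and 3′ UTR levels higher in all 3. In 5′ UTRs, so weighted, members were higher in small workers alone.

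**Figure D2:**
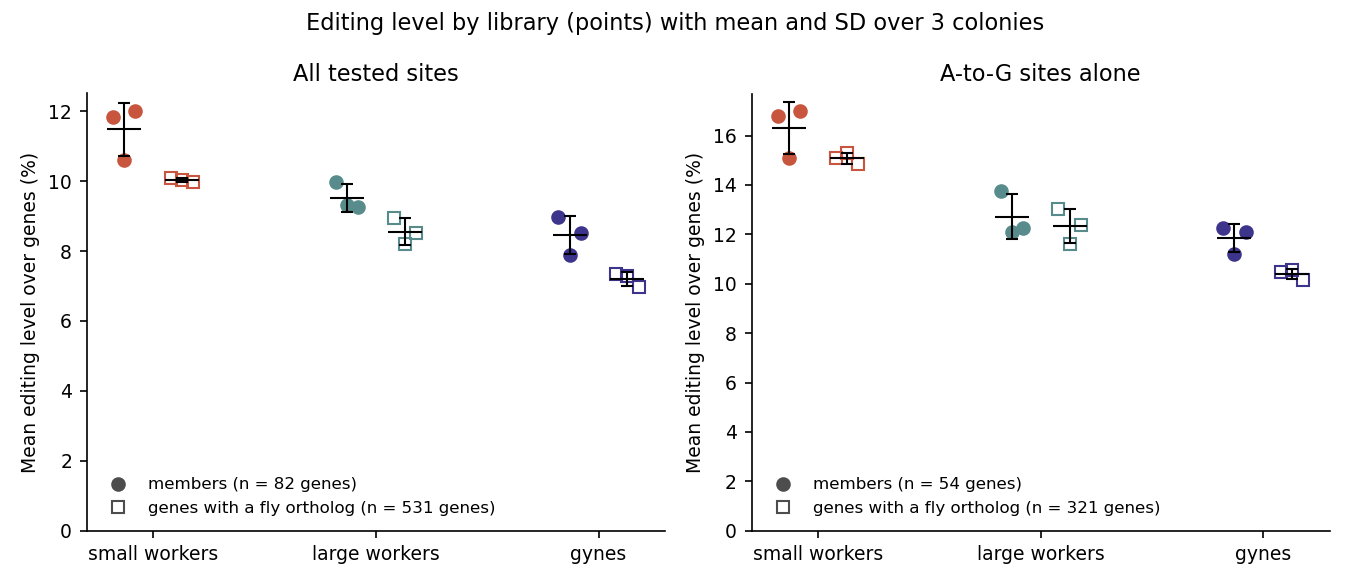
Mean editing level over genes, in percent, for each library (points), with the mean and SD over 3 colonies (bars), in members (filled circles) and genes with a fly ortholog (open squares), for all tested sites (left) and A-to-G sites alone (right). Small workers lie highest in both groups of genes, and the large worker values of members lie nearer to their gyne values on the right.

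The 6 members with the highest levels among those with at least 2 tested sites were Aech_16122, Aech_17859, Aech_11429, Aech_16298, Aech_05557 and Aech_04761. All their tested sites are A-to-G. Aech_16298, with 10 intronic sites within 129 bases of scaffold 1055, was at 27.8%, 30.7% and 27.2% in small workers, 31.3%, 27.7% and 26.7% in large workers and 25.8%, 25.9% and 28.9% in gynes. Aech_05557, with 4 sites in 102 bases of a 3′ UTR and 135 to 896 reads per site and library, was the best covered of them, at 29.4% ± 2.04 in small workers, 27.1% ± 0.683 in large workers and 27.1% ± 2.40 in gynes (SD, n = 3 each). In both genes gynes overlap with both worker castes, and in Aech_05557 the small worker values, at 27.6% or more, lay just above the large worker values. Aech_17859, with 7 sites in a 3′ UTR, was at 40.0% ± 3.69, 37.7% ± 4.24 and 33.2% ± 5.33 in small workers, large workers and gynes. Aech_11429, all of whose sites lie in a transposable element, varied more between colonies than between castes, from 19.1% to 41.7% within small workers. Aech_04761 ranged from 18.97% to 36.0% over the 9 libraries, with all castes overlapping. The limma adjusted p for small workers against gynes lay between 0.3998 and 1 in the 5 genes other than Aech_16122.

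Sites of the same gene differed widely in level in most of the 27 members with at least 3 tested sites. The gap between the highest and the lowest site, each averaged over 9 libraries, had a median of 29.6 percentage points. It ran from 1.25 to 88.6 points. In 171 genes with a fly ortholog the median gap was 30.3 points. The same site was the highest of its gene in all 9 libraries in 10 of the 27 members (37.0%) and in 28.1% of the genes with a fly ortholog. Those members include Aech_16122, Aech_08131, Aech_17327, Aech_13339, Aech_05751 and Aech_14466. Over 209 tested A-to-G member sites, the levels of small workers and gynes had a Pearson correlation of 0.927 and a Spearman correlation of 0.841. The value describes sites that share libraries and genes, and the corresponding values over 1800 sites of genes with a fly ortholog were 0.920 and 0.836.

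On average the level of members was higher in small workers than in gynes, by about as much as in genes with a fly ortholog, and large workers stood nearer to gynes than to small workers. Their mean level was 11.5% ± 0.762 in small workers, 9.52% ± 0.394 in large workers and 8.46% ± 0.548 in gynes (SD, n = 3 each). The excess of small workers over gynes was 3.03 percentage points, at 2.85, 2.72 and 3.51 in colonies A, B and C, and that of genes with a fly ortholog was 2.84. The excess of large workers over gynes was 1.06 points, at 0.987, 1.44 and 0.743 in the 3 colonies, and that of genes with a fly ortholog was 1.36. At A-to-G sites alone, 209 sites in 54 members, levels were 16.3% ± 1.05, 12.7% ± 0.914 and 11.9% ± 0.562 in small workers, large workers and gynes. Large workers then exceeded gynes by 0.855 points in members and by 1.93 points in genes with a fly ortholog, while small workers exceeded gynes by 4.44 and 4.68 points. The small worker and gyne values of members did not overlap in either comparison, and the large worker and gyne values at A-to-G sites did. In pooled heads, more editing within cells and a larger share of transcripts from cells that edit more cannot be told apart. Over members no test of these means was made, since the genes were chosen with results known. Small worker libraries were also the deepest at tested member sites, with medians of 78 to 104 reads per site against 40 to 74 in large workers and 37 to 52 in gynes, and the part of depth in these differences was not tested.

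The order of the 3 caste means was counted for each gene. The order small workers, large workers, gynes from high to low was found in 23 of the 82 members (28.0%) and in 33.9% of the genes with a fly ortholog. Small workers first and large workers last was found in 22 members (26.8%) and in 14.7% of the genes with a fly ortholog. Among the 27 members with at least 3 tested sites these shares were 11 (40.7%) and 10 (37.0%), against 61.4% and 15.8% of the 171 genes with a fly ortholog. Ties between castes left 11 members without an order. Counted site by site, the order with large workers last was as common in members (20.4%) as in genes with a fly ortholog (20.1%). The difference between the classes was not tested.

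By gene, small workers had the higher mean than gynes in 62 of 82 members (75.6%), where 70.9% of all 700 tested genes did. The 3 levels of small workers all lay above the 3 of gynes in 18 members (22.0%), where the share over all tested genes was 25.1%, and all below in 1 member, Aech_02169, where it was 1.14%. Both shares are near those of all genes when every tested gene is counted. With at least 3 tested sites, small workers lay above gynes without overlap in 11 of 27 members (40.7%) and in 55.65% of all 230 such genes. At A-to-G sites alone they did so in 31.5% of 54 members and 41.7% of 321 genes with a fly ortholog. These differences were not tested. The median difference between small workers and gynes was 2.23 percentage points over members and 1.83 over all tested genes. Large workers had the higher mean than gynes in 45 members (54.9%), against 61.4% of all tested genes. With at least 3 tested sites this held in 15 of 27 members (55.6%), against 77.0% of all such genes. Over the 82 members, levels did not overlap in 8 with large workers higher, where 12.4% of all genes did so. In 2 members they did not overlap with large workers lower, where 1.57% of all genes did so. Small workers had the higher mean than large workers in 54 members (65.9%), against 62.4% of all tested genes. Without overlap they lay above large workers in 13 members (15.9% of members and 15.9% of all genes) and below in 3 (2.71% of all genes).

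**Figure D3:**
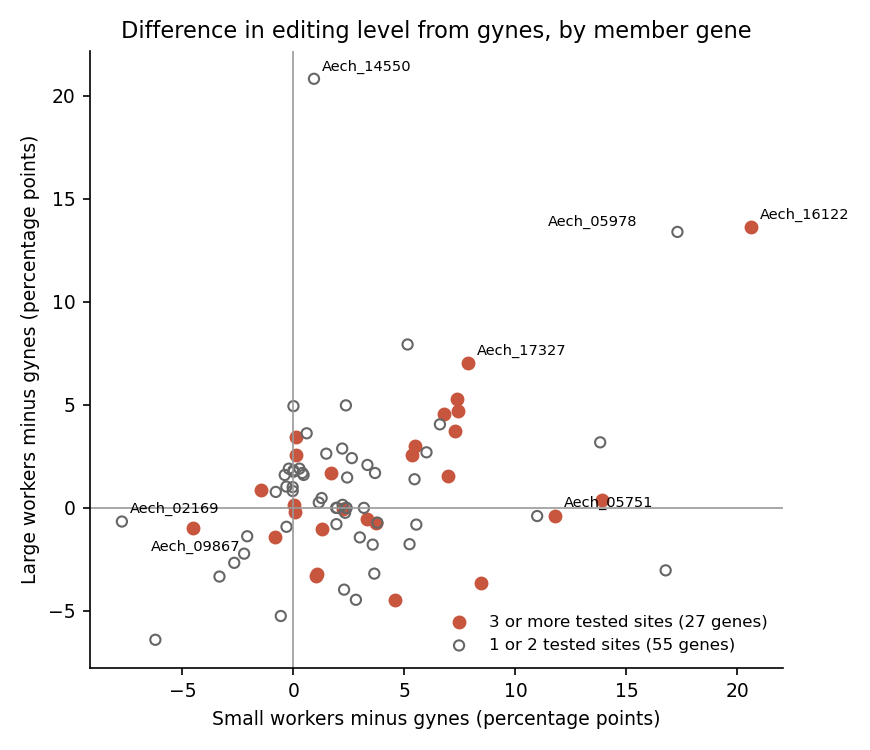
Difference in mean editing level between small workers and gynes (horizontal axis) and between large workers and gynes (vertical axis), in percentage points, for each of the 82 tested members, with 27 genes of 3 or more tested sites filled. Most points lie right of 0 and scatter around 0 on the vertical axis, with Aech_16122 at 20.6 and 13.6 points and Aech_14550 at 0.926 and 20.8 points.

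The levels by element show where the caste differences of members sat. At 27 sites in 5′ UTRs the level was 19.3% ± 2.20 in small workers, 16.8% ± 1.62 in large workers and 12.4% ± 0.689 in gynes, a difference of 6.97 points between small workers and gynes, against 2.86 points at the 30 sites of genes with a fly ortholog. With genes weighted equally, the 9 members concerned differed by 4.73 points and the 17 genes with a fly ortholog by 1.88. A-to-G sites were 24 of the 27 in members and 21 of the 30 in genes with a fly ortholog. Aech_17327 alone holds 9 of the 27 sites. The part of either in the difference between the classes was not tested. At 80 intronic sites the level was 16.7% ± 0.684, 14.3% ± 1.19 and 12.6% ± 0.569, a difference of 4.15 points, against 4.72 in genes with a fly ortholog. At 123 sites in 3′ UTRs it was 17.1% ± 0.829, 15.7% ± 0.397 and 15.1% ± 0.740, a difference of 2.01 points, against 4.81. A single gene, Aech_09867, holds 21 of these 123 sites (17.1%). Without it the 3′ UTR difference was 3.36 points, a comparison added after the data were seen, and with genes weighted equally it was 2.82 points in members and 3.62 in genes with a fly ortholog. Coding sites were at 4.26% ± 0.817, 3.49% ± 0.717 and 3.28% ± 1.79.

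One member, Aech_16122, passed the test of caste differences. Its level at 3 tested intronic sites was 51.2%, 48.6% and 46.7% in small workers, 45.5%, 41.8% and 38.3% in large workers and 29.4%, 28.0% and 27.3% in gynes. The 3 castes do not overlap. Small workers averaged 48.9% ± 2.28 and gynes 28.2% ± 1.06 (SD, n = 3 each), a difference of 20.6 percentage points with a limma adjusted p of 0.0179, where 2.29% of all 700 genes were called. The limma adjusted p over the 3 castes was 0.0439, where 1.14% were called, and that for both worker castes against gynes 0.0361, where 0.571% were called. Large workers averaged 41.8% ± 3.57 and exceeded gynes by 13.6 points, which did not pass, with a limma adjusted p of 0.216. With colony as a block, the adjusted p for small workers against gynes was 0.0744. With levels taken relative to the mean over all genes of each library it was 0.0764, and without the gyne library of colony C it was 0.0619. The gene has 23 A-to-G sites, all intronic, over 8317 bases of scaffold 212, but its median site had 6.11 reads per library, so 20 of the 23 sites could not be tested.

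No member was called between large workers and gynes or between small and large workers, as no gene of the 700 was (0.0% each). At an unadjusted p under 0.05, limma gave 12 members over the 3 castes and 14 for small workers against gynes, out of 82, where 17.0% and 20.4% of all genes passed. For large workers against gynes it gave 6 members, where 8.71% of all genes passed, and for small against large workers 7, where 11.7% passed. These are shares at or below those of all genes. When genes with fewer than 3 tested sites were left out and p-values adjusted over the remaining 230 genes, 8 of 27 members were called between small workers and gynes (29.6%), where 40.4% of these genes were. With A-to-G sites alone 4 of 54 were called (7.41%), where 13.6% of the 434 genes were.

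**Figure D4:**
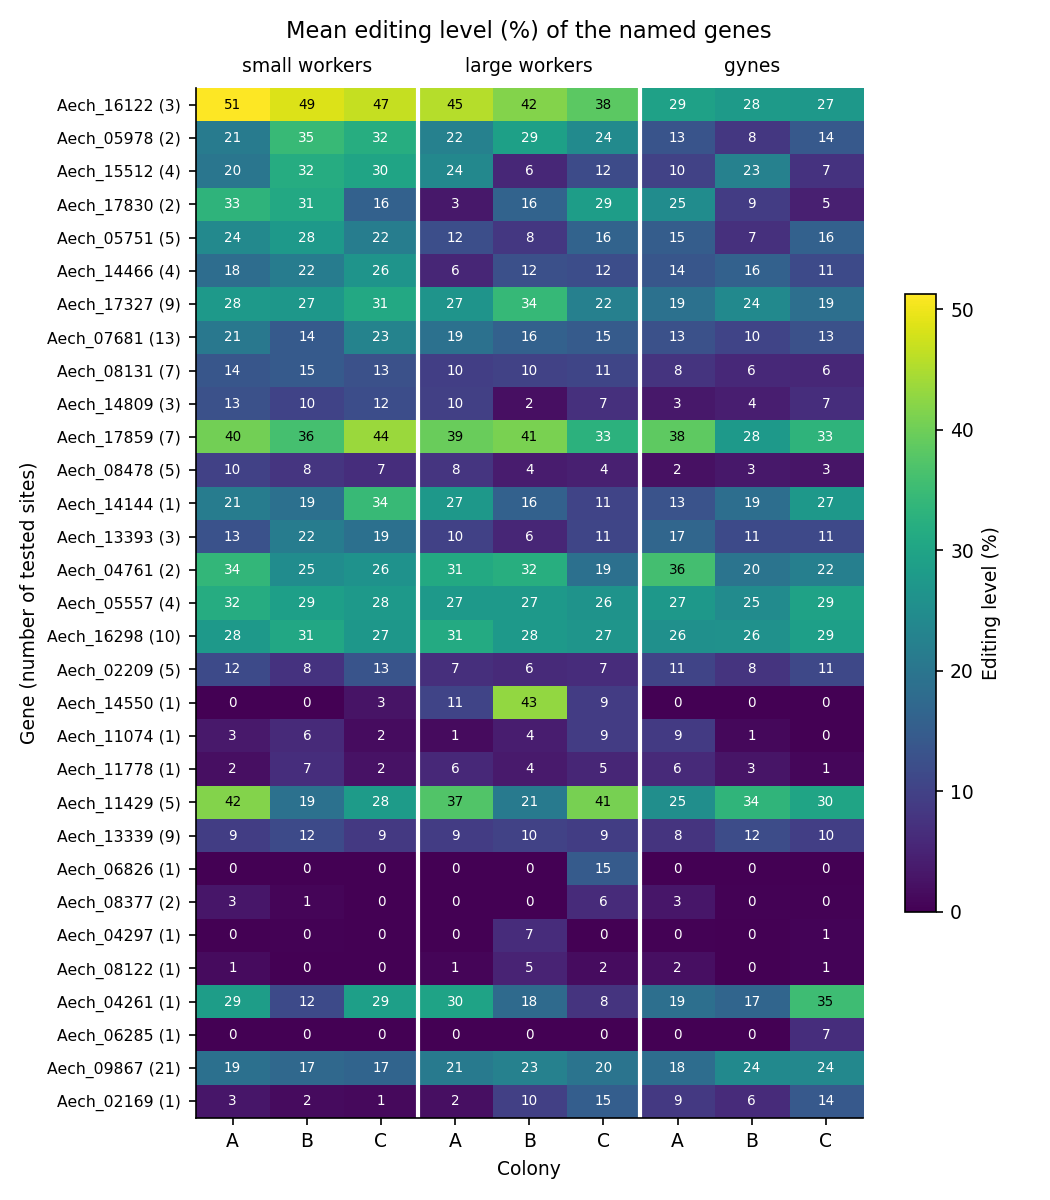
Mean editing level, in percent, of the 31 named members with a tested site in each of the 9 RNA libraries (columns, by caste and colony), sorted by the difference between small workers and gynes, with the number of tested sites in brackets. The colour runs from dark at 0% to yellow at 51.2%, the small worker value of Aech_16122 in colony A, and Aech_02169 at the foot is the member in which small workers lay below gynes without overlap.

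Further members separated small workers from gynes without overlap but did not pass the test by gene. Aech_05978, with 2 intronic sites, was at 21.3%, 34.6% and 31.96% in small workers, 22.5%, 29.1% and 24.5% in large workers and 13.2%, 8.33% and 14.4% in gynes. Both worker castes lay above all gyne values, and the limma adjusted p for small workers against gynes was 0.0635. Aech_08131, with 7 intronic sites, was at 13.7%, 14.6% and 12.8% in small workers, 9.54%, 10.2% and 10.8% in large workers and 7.73%, 5.87% and 5.62% in gynes. Its 3 castes do not overlap, and the adjusted p was 0.0688 (limma). It passed under 10 of 17 alternatives, with a lowest adjusted p of 0.00336 over genes with at least 3 tested sites and a highest of 0.390. In Aech_05751, with 5 sites in a 3′ UTR, small workers stood apart from both other castes, at 24.1%, 27.7% and 21.7%, against 12.3%, 8.27% and 16.4% in large workers and 15.0%, 7.09% and 15.9% in gynes (limma adjusted p for small workers against gynes 0.120).

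Aech_14466, a fragment with 4 tested intronic sites, had the same shape, with large workers lowest, at 22.1% ± 4.10 in small workers, 10.0% ± 3.91 in large workers and 13.7% ± 2.26 in gynes. In Aech_14809, with 18 sites in 275 bases of a 5′ UTR of which 3 were tested, the levels were 11.7% ± 1.27, 6.26% ± 3.897 and 4.74% ± 1.73. The mean of large workers lay near that of small workers instead in Aech_17327, a fragment with 9 sites in 95 bases of a 5′ UTR, at 28.6% ± 2.09, 27.7% ± 6.07 and 20.7% ± 3.11. Its large worker values, from 22.3% to 34.3%, overlapped those of both other castes. Aech_07681, with 13 tested sites in its UTRs, was at 19.3% ± 4.36, 16.6% ± 2.24 and 11.9% ± 1.24. All 4 separate small workers from gynes without overlap, and 12 of the 13 sites of Aech_07681 had the higher mean in small workers. Their limma adjusted p-values for small workers against gynes were 0.211, 0.171, 0.253 and 0.174.

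Tested site by site on read counts, 15 of the 245 member sites were called between small workers and gynes, where 8.23% of all 5720 tested sites were. All 15 were higher in small workers. Over the 3 castes 11 member sites were called, where 6.38% of all sites were. None was called between large workers and gynes (0.472% of all sites) or between small and large workers (0.874% of all sites). At an unadjusted p under 0.05 there were 18 and 30 such member sites, or 7.35% and 12.2%, where 10.6% and 12.3% of all sites passed. The called shares of members, 6.12% and 4.49%, are below those of all sites. The 15 sites lie in 9 genes, 5 of them in Aech_08131, 2 in Aech_16122 and 2 in Aech_17327, so they are not 15 independent observations. Levels of small workers lay above those of gynes without overlap at 45 sites (18.4% of member sites, 22.0% of all sites) and below at 11 (4.49%, against 1.61% of all sites).

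The site of Aech_17327 at position 235494 of scaffold 490, on the minus strand, had 112 to 370 reads per library. Its level was 45.4%, 50.3% and 43.7% in small workers, against 29.5%, 27.9% and 22.1% in gynes, with a quasi-binomial adjusted p of 3e-06. Another site of the gene, 15 bases away, was edited in most reads of every caste, at 81.7% ± 3.18 in small workers, 76.7% ± 5.88 in large workers and 70.5% ± 5.54 in gynes (adjusted p for small workers against gynes 0.0272). In Aech_16122 the site at position 73196 of scaffold 212, within a transposable element, was at 80.4%, 72.5% and 80.0% in small workers, against 41.2%, 45.6% and 41.7% in gynes (adjusted p 2.8e-05). The site of Aech_05978 at position 1254882 of scaffold 104 was at 39.4%, 61.2% and 52.1% in small workers, against 25.0%, 16.7% and 26.0% in gynes (adjusted p 0.000338).

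Aech_08131 had the most called sites. They lie within 137 bases of an intron on the minus strand of scaffold 274, and the site with the highest level, at position 576496, was at 35.3%, 36.9% and 33.3% in small workers, against 23.3%, 12.9% and 17.6% in gynes (adjusted p 0.000149). All 7 sites of this gene had the higher mean in small workers. At position 576496 large workers lay nearer to small workers, with 30.9% ± 2.61. At positions 576603 and 576619 they lay nearer to gynes, and at the second of these small workers were at 7.48% ± 2.06, large workers at 1.14% ± 1.97 and gynes at 2.74% ± 1.40.

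**Figure D5:**
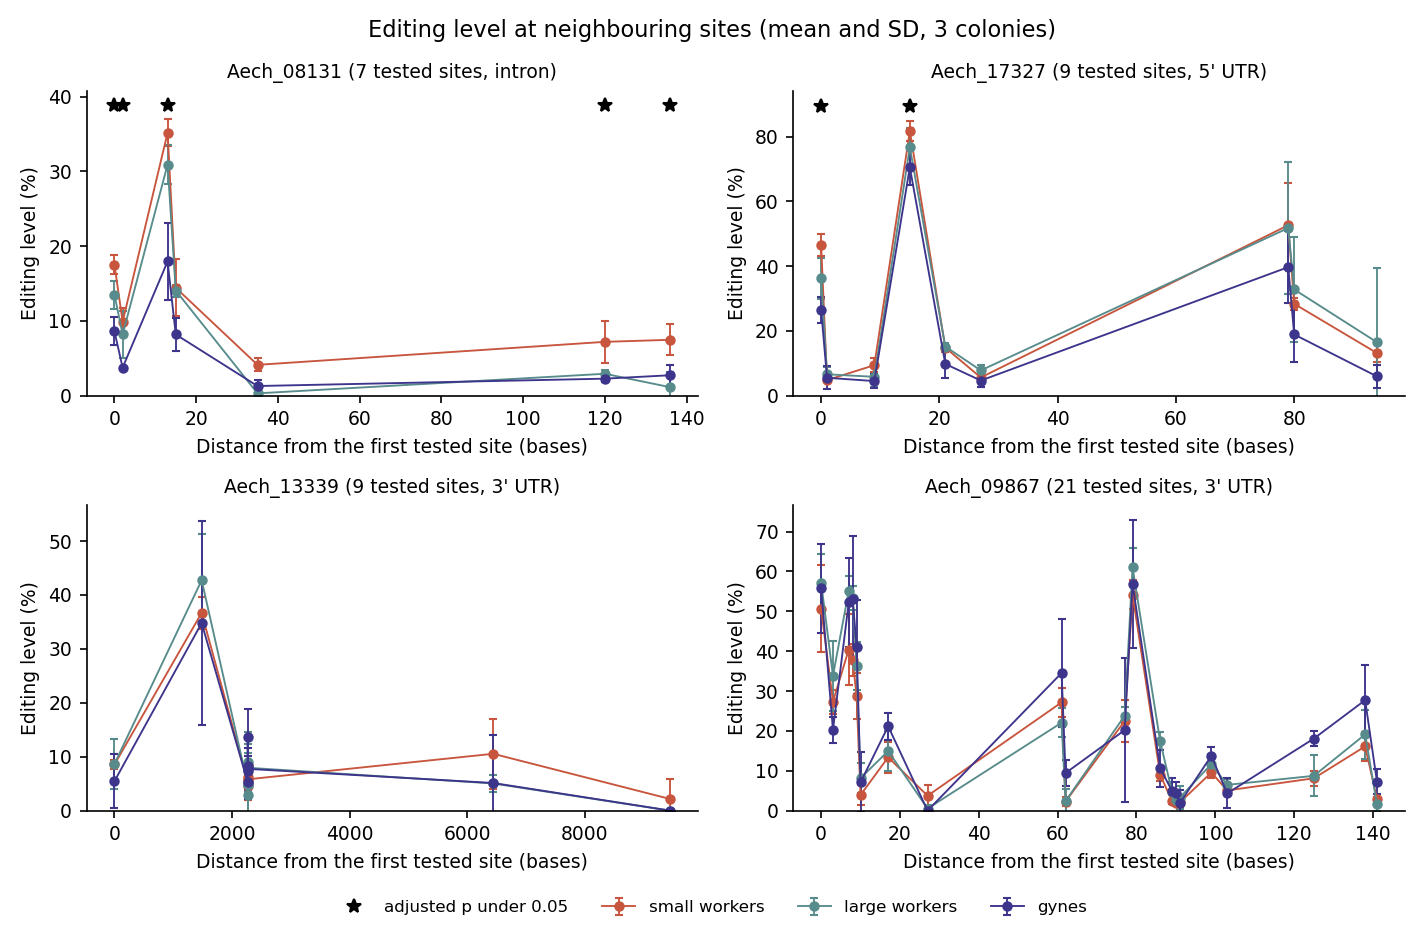
Editing level in percent (mean and SD over 3 colonies) at each tested site of 4 members, by distance in bases from the first tested site, in small workers (red), large workers (green) and gynes (blue), with stars at sites called between small workers and gynes. The highest site is the same in all castes in Aech_08131, Aech_17327 and Aech_13339, small workers lie highest at all 7 sites of Aech_08131, and in Aech_09867 small workers lie below gynes at 16 of 21 sites.

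The other called sites were single ones in their genes. Aech_13393 at position 239906 of scaffold 546 was at 27.6% ± 6.04 in small workers and 11.7% ± 3.76 in gynes (adjusted p 0.0105). Aech_15512 at position 94073 of scaffold 63 was at 36.4% ± 6.70 in small workers and 10.9% ± 10.6 in gynes (adjusted p 0.0336). Neither gene passed the test by gene, and in Aech_13393 the means of the whole gene were 17.8%, 8.73% and 13.2% in small workers, large workers and gynes. Aech_05751 at position 1936208 of scaffold 553 was at 23.95% ± 5.67 in small workers and 7.52% ± 1.37 in gynes (adjusted p 0.0383). The called sites of Aech_08478 and Aech_14809 had low levels, at 7.78% ± 1.73 and 8.73% ± 7.73 in small workers and 0.556% ± 0.962 and 0% in gynes. In Aech_14809 the small worker values ran from 1.56% to 16.9%, and this adjusted p was 0.0445. With colony as a block, with limma on site levels and with the general shift of each caste taken out, 0, 0 and 1 member sites were called between small workers and gynes. The shares over all sites were then 0.0%, 0.0% and 1.56%. Between 3 and 8 of the 15 sites were still called when any 1 of the 9 libraries was left out, where 0.909% to 3.83% of all sites were called. The spread of a site's own libraries exceeded the shared dispersion at 3 of the 15 sites.

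Small workers were lowest in 10 members without ties, in 7 of them with large workers highest and in 3 with gynes highest. Aech_02169, with a single intronic site that is not A-to-G, was at 3.15%, 1.55% and 1.22% in small workers, 2.06%, 9.80% and 15.3% in large workers and 8.57%, 6.25% and 14.3% in gynes (limma adjusted p for small workers against gynes 0.191). Aech_09867, whose 21 tested sites in a 3′ UTR all lie in a transposable element, was at 18.8%, 17.3% and 16.6% in small workers, 21.2%, 22.5% and 19.8% in large workers and 18.2%, 24.2% and 23.9% in gynes. Gynes of colony A fell within the small worker values, the other gyne libraries lay above them, and the adjusted p was 0.394 (limma). Aech_13339, with 32 sites in a 3′ UTR of which 9 were tested, did not separate the castes, at 9.81% ± 1.54 in small workers, 9.54% ± 0.504 in large workers and 9.75% ± 2.08 in gynes. Aech_02209, with 21 intronic and 2 coding sites, was lowest in large workers, at 10.8% ± 2.98, 6.499% ± 0.390 and 9.79% ± 1.83, with no large worker value reaching those of the other castes.

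The 3 members in which large workers stood farthest outside the other castes each rest on 1 tested site. Aech_14550, at an intronic G-to-A site on scaffold 373, was at 0%, 0% and 2.78% in small workers, 10.5%, 42.9% and 9.09% in large workers and listed at 0 in all gyne libraries, with 11 to 55 reads per library. All large worker values lie above the rest. The limma adjusted p of large workers against gynes was 0.218, and the quasi-binomial adjusted p over the 3 castes was 0.0312. Aech_06826 was listed at 0 in 8 libraries and at 14.8% in large workers of colony C. Aech_04261 was at 23.0% ± 9.93 in small workers, 18.3% ± 11.0 in large workers and 23.6% ± 10.2 in gynes, so its castes overlap widely.

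The 116 untested members hold 395 of the 860 sites, 67.1% of them in introns, and the median depth of their sites was 5.56 reads in a library, against 32.4 for the sites of tested members. Their summed reads, 1575 to 4897 per library, gave a level of 29.4%, 29.9% and 29.9% in small workers, 24.5%, 20.3% and 25.0% in large workers and 18.0%, 19.7% and 18.1% in gynes. The 3 castes do not overlap, and small workers exceeded gynes in each colony. The lack of overlap between large workers and gynes rests on Aech_04432, a single site that is not A-to-G and holds 1520 of the 8402 gyne reads. Without it, a comparison added after the data were seen, large workers were at 24.5%, 20.3% and 24.95% and gynes at 23.0%, 19.9% and 20.98%, so these castes overlap, while small workers, at 29.4%, 30.3% and 29.9%, still lay above both. With A-to-G sites alone, also added then, large workers and gynes overlap as well. In both comparisons large workers still lay above gynes within each colony. The same sum over all 465 sites of the tested members was 15.5% ± 0.724, 13.3% ± 1.02 and 12.9% ± 1.24 in small workers, large workers and gynes. The authors marked 71.2% to 79.8% of all member sites as edited in a small worker library. The shares were 46.05% to 69.4% in large worker libraries and 49.3% to 56.2% in gyne libraries. The part of read depth and of site detection in the higher level of untested members, and in their caste differences, was not tested. Among the richest members Aech_12892, with 13 sites in a 5′ UTR and 15 in introns, and Aech_04420, with 23 sites in 764 bases of a 3′ UTR, had no tested site. Aech_14144 had 1 tested site of 40, at 24.9% ± 8.37 in small workers, 17.9% ± 8.54 in large workers and 19.7% ± 7.10 in gynes. Aech_17830 had 2 of 26, at 26.7% ± 9.46, 16.1% ± 12.6 and 12.9% ± 10.7, and the castes overlap in both.

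The authors' deposited table marks in which libraries each site was found. It marked 151 member sites (17.6%) in all 9 libraries, against 21.5% in genes with a fly ortholog. Marks in all 3 small worker libraries and no gyne library were given to 37 member sites (4.30%), and the reverse to 1, against 4.43% and 0.141% in genes with a fly ortholog. At the 37 sites the median depth was 14 reads in small workers and 5.33 in gynes. At the corresponding sites of genes with a fly ortholog it was 23.3 and 10.2, and the part of depth in the marks was not tested.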

How the data were processed

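The authors deposited 1 table that holds, per the file headers, packed counts of DNA and RNA reads for each base, site and library, marks of detection, coordinates on assembly Aech_2.0, element, gene, protein name and fly ortholog. Per the submitters' processing notes BWA (0.5.9-r16) was used. For site detection, no rule is given in the sources used. The deposited scale is thus counts, and levels were computed here as edited over all reads.

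Members and lists were chosen with earlier results of these data known. Sites needed 10 reads in all 9 RNA libraries (5720 sites, 700 genes). Genes were tested with limma 3.58.1 (R 4.3.3) on each gene's mean site level after an arcsine-square-root transformation, and sites with a quasi-binomial model whose dispersion was moderated by squeezeVar of limma (1.88, shared by all sites, at least 1). P-values were adjusted by Benjamini-Hochberg over all genes or sites, with a threshold of 0.05. Both tests were run on simulated counts with independent libraries and no colony effect, so that check does not cover the pairing by colony.

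The letters A to C name colonies per the labels, and libraries of 1 colony are therefore pairs. Deviations from caste means correlated with r from -0.0463 to 0.0683 between libraries of 1 colony and from -0.100 to 0.0631 between colonies, across genes. Heads were pooled, so the spread is that between colony pools. Reads carry no molecular identifiers, and depth bounds counting error only.

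Named are the 10 members with the most sites, those called by limma, the 6 with the highest level, the 8 largest excesses and 4 largest deficits of small workers over gynes without overlap, the 3 with large workers farthest outside, up to 6 with tested coding sites, and the genes of called sites. Alternatives were read minimums of 5 and 20, A-to-G sites alone, other summaries and scales, the replicate block and leaving out each library. Tables and plots used Python 3.11.15, pandas 2.3.3 and matplotlib 3.10.9. Sequences were not analysed here.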

Additional observations from a re-analysis of the deposited data

How the results depend on the processing

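The counts of called members depended on the setting, and the mean differences kept their sign in every alternative run. Among the 3 castes, where 1 member gene was called, the count was 0 at read minimums of 5 and 20 (0.0% and 0.808% of all genes). It was also 0 with colony as a replicate block and 0 relative to the library mean over genes (0.0% each). It was 2 with A-to-G sites alone (4.61% of all genes) and 2 with untransformed levels (3.57%), 5 among genes with at least 3 tested sites (28.3%), and between 0 and 1 when any library was left out (0.0% to 2.0%). Between small workers and gynes the count of 1 became 2 of 56 at a minimum of 20 reads (5.05% of the 495 genes). Aech_16122 had no site at that minimum, so the 2 are other genes. The count was 4 of 54 with A-to-G sites alone (13.6% of all genes), 3 with untransformed levels (6.29%) and 8 of 27 among genes with at least 3 tested sites (40.4% of all such genes). It was 0 with the replicate block (0.0%) and 0 relative to the library mean (0.143%). Without any 1 library it lay between 0 and 5, where 0.0% to 5.86% of all genes were called. For sites, the counts of 11 and 15 became 0 and 0 with the replicate block and 0 and 0 with limma on site levels, where 0.0% of all sites were called. They became 2 and 1 with the general shift of each caste taken out, where 1.26% and 1.56% of all sites were called. They ranged from 0 to 2 and from 3 to 8 when a library was left out, where the shares of all sites ran from 0.0% to 1.07% and from 0.909% to 3.83%. With the block, 15 member genes (18.3%) and 36 member sites (14.7%) had an unadjusted p under 0.05 between small workers and gynes, where 18.9% of all genes and 17.5% of all sites did. The excess of small workers over gynes, 3.03 points, became 4.44 with A-to-G sites alone and 2.05 as a median over genes, and lay between 2.74 and 3.46 without any 1 library. The excess of members over genes with a fly ortholog, 1.23 points, became 0.608 at a minimum of 5 reads and 0.531 as a median over genes, and lay between 1.13 and 1.31 without any 1 library. The causes of these changes were not tested.

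Of 31 named genes with a fit, 20 kept the sign of the difference between small workers and gynes in all alternatives. The sign changed in 11, none of which was called in any setting. At a minimum of 20 reads the difference was -2.41 points in Aech_13339 and -3.48 in Aech_02209, with A-to-G sites alone -0.206 in Aech_13339, and with summed reads -1.10 in Aech_13339 and -0.221 in Aech_11429. Relative to the library mean, on the arcsine-square-root scale, it was -0.0479 in Aech_13339, -0.0338 in Aech_02209 and in Aech_11778, -0.0522 in Aech_11429, -0.0303 in Aech_16298, -0.0243 in Aech_05557 and -0.0197 in Aech_04761. Without any 1 library the differences ran from -0.931 to 1.14 points in Aech_13339, -0.237 to 2.66 in Aech_02209, -5.94 to 5.36 in Aech_11429, -0.668 to 7.43 in Aech_04761, -4.02 to 5.29 in Aech_04261, -1.06 to 1.84 in Aech_11778, -0.882 to 0.215 in Aech_08122, -0.964 to 0.882 in Aech_08377 and -1.19 to 3.16 in Aech_11074. Depth left 116 of 198 members without a testable site.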
